A study of Mus musculus with 5 samples.

Results

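The neurons described here are dentate granule nuclei with high levels of 6 genes, Penk, Pappa, Col27a1, Acvr1c, Gsg1l and Sv2c. They were chosen by measured scores. In nuclei with at least 1000 detected genes, each gene was expressed as the natural log of 1 plus its unique molecular identifiers (UMIs) per 10000 and converted to a z-score over the nuclei of all libraries, and a score is the mean over its genes. A member has a score of at least 0.5 on the granule genes Prox1, Glis3, Stxbp6, C1ql2, Trpc6 and Plk5, a score below 0.5 on the inhibitory genes Gad1, Gad2 and Slc32a1, and a score of at least 1 on the 6 member genes. By this rule there were 1066 members among 27681 nuclei (3.85%), or 14.8% of the 7186 granule nuclei. The other 6120 granule nuclei are the reference throughout.

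The study profiled nuclear RNA and open chromatin together in hippocampus of mice, with 1 library for each of 5 genotypes: wild type, 5xFAD, 5xFAD with astrocyte-specific MAGL-KO, 5xFAD with neuron-specific MAGL-KO and 5xFAD with global MAGL-KO. 5xFAD mice carry transgenes under the Thy1 promoter and model amyloid deposition. MAGL, encoded by Mgll, is the lipase that degrades the endocannabinoid arachidonoylglycerol. By their labels, 4 of the 5 genotypes share the 5xFAD transgenes and 3 of these also carry a MAGL deletion. The sources used here give no age, Cre driver, deleted exons or number of animals per library, and all 5 libraries carry the same batch label. Xist and Y-linked UMIs marked separate nuclei in every library, so animals of both sexes were pooled. With 1 library per genotype no test between genotypes was possible, and genotype, animals and library cannot be told apart. All intervals are 95% and cover counting error only. Values given in fives follow the order wild type, 5xFAD, astrocyte, neuron and global MAGL-KO.

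Granule neurons are the glutamatergic principal cells of the dentate gyrus and send mossy fibres to CA3. Only a few of them fire strongly at a time, and activity is known to induce secreted and synaptic genes in them, among them Bdnf and Nptx2. Penk encodes proenkephalin, the precursor of the enkephalins, which act on delta and mu opioid receptors. Pappa is a secreted metalloproteinase that cleaves insulin-like growth factor binding proteins. Col27a1 is a fibrillar collagen, Acvr1c is the activin and nodal receptor ALK7, Gsg1l is an auxiliary subunit of AMPA receptors and Sv2c is a synaptic vesicle glycoprotein.

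Whole libraries held 4009 to 7343 nuclei that passed the filter, and 23.6% to 28.3% of them were granule nuclei. The members gave 996953, 768149, 2766693, 5210432 and 5415635 UMIs in library order, so a gene without any UMI could still lie at 3.01, 3.91, 1.08, 0.576 and 0.554 CPM (UMIs of a gene per 1000000 UMIs of its class). Member nuclei had median depths of 12147, 12853.5, 10707.5, 15019 and 11142 UMIs, close to the 13601, 14237, 11739, 15008 and 12366 of other granule nuclei. Mgll, the targeted gene, was measured at 102, 105, 112, 120 and 106 CPM in members and at 74.3, 77.8, 92.1, 92.4 and 80.3 CPM over all nuclei. It was not lower in the libraries labelled neuron or global MAGL-KO, so these are called by their labels only. Thy1, the gene whose promoter drives the transgenes, stood at 42.1 CPM in wild-type members and at 234, 378, 396 and 300 CPM in the members of the 4 5xFAD libraries. Library pairs shared 29 to 63 nuclear barcodes (450 over all pairs), and 1 of these was a member in more than 1 library.

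Members were a small share of granule nuclei in wild type and 5xFAD and a larger one in the 3 MAGL-KO libraries. They numbered 71 of 1459 granule nuclei in wild type (4.87%, Clopper-Pearson interval 3.82 to 6.10) and 58 of 1211 in 5xFAD (4.79%, 3.66 to 6.15). In the 3 MAGL-KO libraries (labelled astrocyte, neuron and global, in this order) they numbered 226 of 1549 (14.6%, 12.9 to 16.4), 286 of 1115 (25.7%, 23.1 to 28.3) and 425 of 1852 (22.9%, 21.1 to 24.9). The intervals of the first 2 libraries overlapped each other and none of the other 3. The 3 MAGL-KO libraries supplied 937 of the 1066 members (87.9%).

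The larger share lay mainly in nuclei called by Xist. A nucleus was called by Xist when it held at least 2 Xist UMIs and no UMI of 4 Y-linked genes, and by Y when it held a Y-linked UMI and none of Xist. Among Xist-called granule nuclei, members made up 4.97%, 5.90%, 21.5%, 32.2% and 40.1% in library order. Among Y-called granule nuclei they made up 5.59%, 4.45%, 3.58%, 3.59% and 4.01%, and these 5 intervals all overlapped. Among granule nuclei with both Xist and Y-linked UMIs they made up 2.10%, 1.20%, 9.35%, 18.0% and 14.6%, on 3, 1, 13, 16 and 29 members. Only 17, 7 and 27 members of the astrocyte, neuron and global MAGL-KO libraries were Y-called, against 195, 263 and 366 that were Xist-called. Of the members with a call, 92.0%, 97.4% and 93.1% were Xist-called in these libraries, against 65.7%, 80.8% and 57.5% of all their granule nuclei. In wild type and 5xFAD the corresponding values were 55.2% and 48.2% of members against 58.1% and 41.3% of granule nuclei. The part of sex, or of single animals of 1 sex, in the difference between libraries cannot be told apart from genotype.

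**Figure D1:**
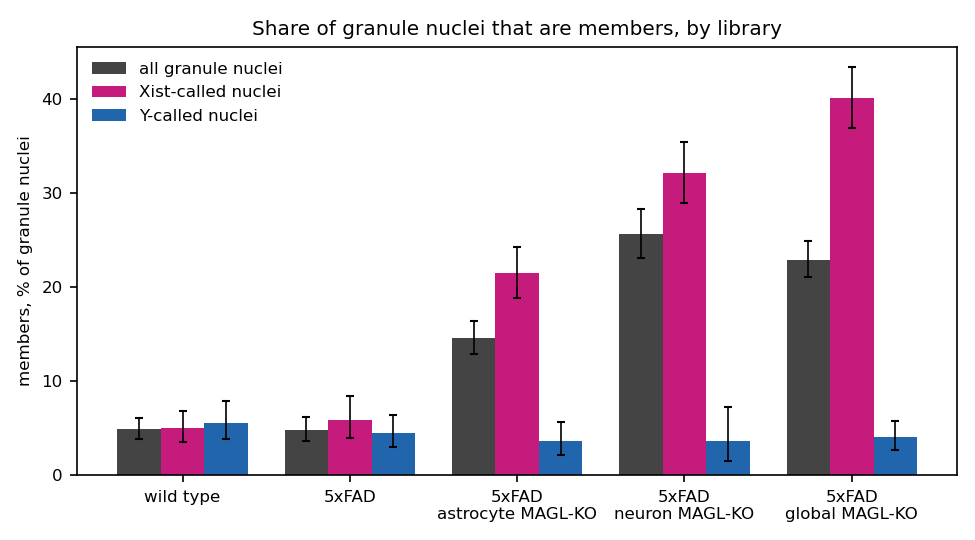
Members as a percentage of granule nuclei (vertical axis) in each library (horizontal axis), for all granule nuclei and for those called by Xist or by Y-linked genes; bars start at 0 and whiskers are 95% Clopper-Pearson intervals. The Y-called share lies between 3.58% and 5.59% in all 5 libraries, while the Xist-called share is 21.5%, 32.2% and 40.1% in the 3 MAGL-KO libraries.

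Over all granule nuclei of a library the median of the score was 0.03, 0.01, 0.13, 0.15 and 0.28, and its highest value 2.96, 2.77, 3.74, 4.43 and 4.59. Of Xist-called granule nuclei, 7, 4, 61, 145 and 153 reached a score of 2 or more, against 4, 4, 2, 0 and 3 of Y-called ones. In the neuron MAGL-KO library the Xist-called nuclei had a low point in the band from 1 to 1.5, with 51 nuclei, and more at 1.5 to 2 (67) and above (145). At the threshold, 91 members scored from 1.0 to 1.1 and 132 non-members from 0.9 to 1.0. Their Penk levels were 51.6 and 46.9 CPM, their Pappa levels 28.8 and 16.8 CPM, and their Sv2c levels 241 and 245 CPM, and these levels are set by the score itself.

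**Figure D2:**
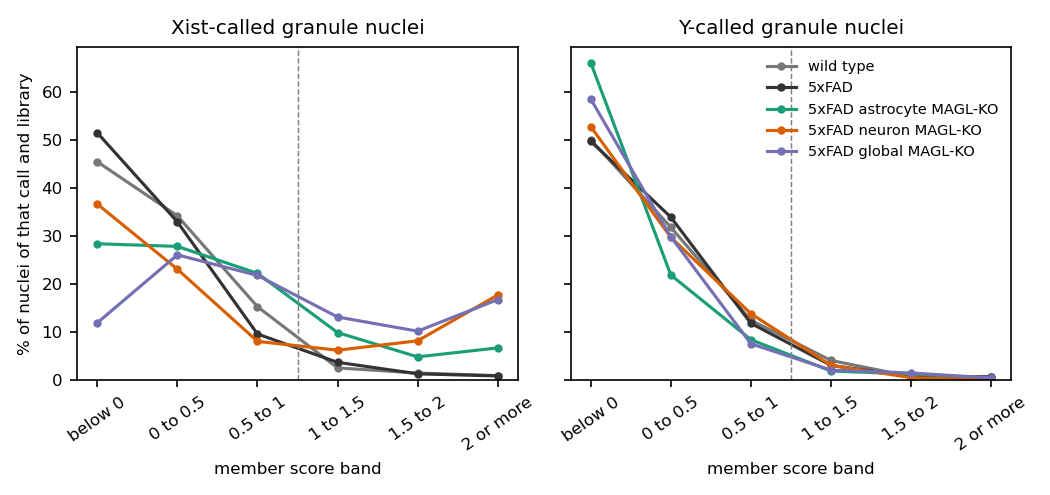
Percentage of Xist-called (left) and Y-called (right) granule nuclei of each library (vertical axis) in bands of the member score (horizontal axis); the dashed line marks the membership threshold of 1. In the Y-called panel 0 to 4 nuclei of a library are in the band of 2 or more, and in the Xist-called panel the 3 MAGL-KO libraries have 61, 145 and 153 there.

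The label of a granule neuron was checked on genes outside the rule. Of 10 further granule genes, 8 reached 20 CPM in either class, and 5 of these 8 were lower in members in every library and 1, Pdzd2, was higher in every library. Over all 6117 genes tested, 1229 (20.1%) were lower in every library and 928 (15.2%) higher. Calb1, the calcium buffer calbindin of mature granule cells, was at 70.2, 53.4, 45.9, 27.3 and 26.6 CPM in members and at 134, 145, 128, 119 and 109 CPM in other granule nuclei, without overlap. Dsp, which encodes desmoplakin and marks granule cells, was at 9.23 to 16.0 CPM against 32.4 to 40.2. The granule transcription factors Zbtb20 (2744 to 3566 against 4345 to 4960 CPM) and Rfx3 (1432 to 1829 against 2373 to 2670) were lower but abundant, and Bcl11b was at 177 to 234 against 247 to 275 CPM. Of 9 genes of immature granule neurons only Dcx and Sox11 could be tested, and neither went the same way in all libraries (median mean log2 ratio 0.25): Dcx was at 19.5 to 39.4 CPM in members and 20.7 to 27.5 in the others, and Sox11 at 27.3 to 82.3 against 23.7 to 38.0. Most of the granule genes outside the rule that were tested were thus present but lower in members, with a median mean log2 ratio of -0.44 against -0.02 over all genes.

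Of the marker lists of other cells, some were below the level in other granule nuclei and some above. Summed over the list, CA1 pyramidal markers stood at 2.60 to 49.5 CPM in members against 67.9 to 95.6, and inhibitory markers at 1337 to 2014 against 1906 to 2596, nearly all of it Adarb2 (1202 to 1948 CPM), which granule nuclei also express. The inhibitory genes Gad1 (28.6 to 42.6 against 29.9 to 32.1 CPM), Gad2 (0 to 2.53 against 1.00 to 1.84) and Slc32a1 (0.361 to 1.30 against 0.262 to 0.790) were limited by the rule itself and are given as a description. Microglia markers summed to 38.1 to 60.7 against 46.4 to 71.8 CPM, precursor markers of oligodendrocytes to 2.60 to 22.1 against 9.08 to 18.0, and vascular markers to 1.30 to 9.98 against 3.75 to 9.22. Astrocyte markers summed to 202 to 345 against 193 to 214 CPM, carried by Slc1a2 at 185 to 322 CPM against 147 to 160. The other astrocyte marker tested, Slc1a3, was lower in every library, at 11.4 to 25.1 against 36.5 to 47.9 CPM, with Aqp4 at 0 to 2.01 and Gfap at 0 to 2.53. Oligodendrocyte markers summed to 390 to 520 against 367 to 394 CPM, carried by St18 at 281 to 392 CPM, with Mog at 0 to 4.34. Of the 3 oligodendrocyte markers tested, 1 was higher and 1 lower in every library (15.2% and 20.1% of all genes). Markers of CA3 pyramidal and mossy cells summed to 813 to 936 against 659 to 750 CPM, without overlap, and their part in the results was not tested. Of the 4 tested, Galnt3 was lower in every library (2.60 to 16.0 against 20.9 to 28.3 CPM), Cpne4 went both ways (150 to 574 against 285 to 443), Grik4 was higher in 4 of 5 libraries (242 to 622 against 251 to 341) and Nectin3 was higher in members of every library, at 50.2, 44.3, 102, 177 and 113 CPM against 27.3, 20.5, 27.6, 21.5 and 32.9. Nuclei with UMIs of both Xist and Y-linked genes were rarer among members (1.72% to 6.82%) than among other granule nuclei (7.11% to 11.8%).

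Members also lay near each other when the rule genes were set aside. In 40 principal components of granule nuclei, computed without the genes of the 3 scores, Xist and the Y-linked genes, members were 22.3%, 28.7%, 45.8%, 81.4% and 64.7% of the 15 nearest nuclei of a member from the same library. For other granule nuclei the values were 2.44%, 2.91%, 7.40%, 6.22% and 9.78%. These percentages move with the share of members among all granule nuclei, which was 4.87%, 4.79%, 14.6%, 25.7% and 22.9%, and give no order of the libraries. In each library the neighbours of members held more members than that share, and those of other nuclei fewer.

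The 6 genes of the rule are given as a description, since they chose the members. Penk was at 58.2, 72.9, 121, 136 and 115 CPM in members and at 4.31, 3.64, 10.7, 10.2 and 10.6 CPM in other granule nuclei. Pappa was at 120, 111, 90.7, 196 and 96.4 CPM against 2.74 to 4.14. Members of wild type and 5xFAD thus had less Penk than those of the other 3 libraries, while for Pappa the neuron MAGL-KO library was highest and the intervals of the astrocyte and global ones overlapped that of 5xFAD. Acvr1c stood at 178 to 294 CPM against 43.3 to 69.6, Gsg1l at 252 to 389 against 68.2 to 77.5 and Sv2c at 227 to 305 against 80.8 to 112. Col27a1 was the exception: members held 3 UMIs in wild type (3.01 CPM, 0.621 to 8.79) and 2 in 5xFAD (2.60 CPM, 0.315 to 9.41), but 32.5, 51.2 and 111 CPM in the astrocyte, neuron and global MAGL-KO libraries. When Col27a1 was left out of the score, the nuclei that passed had it at 1.26, 0.864, 21.7, 46.7 and 84.6 CPM. Penk, left out in turn, stood at 30.8, 38.5, 81.9, 126 and 92.7 CPM in the nuclei chosen by the other 5 genes, and Pappa at 65.6, 40.9, 59.6, 180 and 71.8 CPM, above the remaining granule nuclei in each library. In wild type and 5xFAD the member score is thus carried by 5 genes.

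Beyond the rule, 22 of 6117 genes (0.360%) were at least 2-fold higher in members in each of the 5 libraries, and 24 (0.392%) at least 2-fold lower, on log2 ratios of CPM with 5 CPM added. The 22 include 5 rule genes (all but Col27a1), 4 unnamed gene models and 13 others. Because the rule used RNA of the same nuclei, these counts describe the members and carry no test. Without the wild-type library, 58 genes were lower, and the 24 were among them.

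Sorcs3, a sorting receptor of the Vps10 family, was at 572, 579, 349, 1388 and 557 CPM in members and at 115, 77.6, 132, 156 and 154 in other granule nuclei, the largest mean ratio of the 13 (log2 2.28). Bdnf, the neurotrophin, was at 230, 204, 293, 296 and 255 CPM against 87.4, 67.4, 107, 63.7 and 77.7. Nptx2, a secreted pentraxin that gathers AMPA receptors at synapses, was at 17.1, 19.5, 22.8, 58.9 and 27.5 CPM against 2.92, 2.22, 4.62, 6.52 and 3.93. For each of these genes the lowest member value lay above the highest value of the other granule nuclei. Nrxn3, a presynaptic adhesion molecule, was the most abundant, at 5439 to 8761 CPM against 1568 to 2532, and the netrin receptor gene Unc5d was at 1002 to 1651 against 299 to 454. Among signalling genes were Mapk4, an atypical MAP kinase (418 to 812 against 139 to 212 CPM), Rasgrp1, an exchange factor for Ras (124 to 267 against 43.3 to 71.8), the kinase gene Mylk3 (21.1 to 41.7 against 3.47 to 6.45) and the nuclear receptor gene Pparg (112 to 151 against 39.4 to 53.3). Fbln2, an extracellular matrix protein, was at 20.1, 27.3, 71.6, 105 and 84.2 CPM against 4.13, 3.64, 11.3, 7.31 and 10.7. The remaining 3 were Plpp4, a lipid phosphatase (92.3 to 287 against 31.6 to 57.9 CPM), Serinc2 (23.4 to 68.1 against 7.42 to 16.7) and Ppl, or periplakin (20.8 to 27.8 against 3.96 to 8.66). Of the 13, Nptx2, Fbln2, Mylk3, Serinc2 and Ppl passed the filter of 20 CPM through members alone. They were at most 16.7 CPM in other granule nuclei.

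The 10 lower genes with the largest mean ratio included genes of the extracellular matrix and of signalling. Ccbe1, an extracellular matrix protein, was at 54.2, 36.5, 21.0, 41.5 and 22.5 CPM in members and 161, 179, 132, 180 and 143 in other granule nuclei, and the tetraspanin gene Tspan18 was at 6.51 to 28.1 against 63.6 to 88.1. Il16 (4.80 to 15.0 against 37.3 to 46.3 CPM), Vwa3a (11.2 to 21.1 against 46.6 to 62.0), the glypican Gpc3 (3.25 to 13.0 against 23.7 to 43.4), Matn2, a matrilin (7.23 to 20.7 against 53.4 to 71.8), and the transmembrane collagen Col23a1 (1.30 to 12.7 against 30.6 to 36.9) followed. Mgat4c, a glycosyltransferase gene, was at 0 to 79.3 CPM against 134 to 167, and Pde1a, a cyclic nucleotide phosphodiesterase, at 28.6 to 111 against 204 to 330. Over all nuclei of a library Mgat4c reached at least 768 CPM and Pde1a at least 696, above both granule groups, and the share of nuclei with both Xist and Y-linked UMIs was lower among members; their part in the low values of these genes was not tested. Pdzrn4 was at 40.8 to 84.3 against 138 to 235 CPM. Igfbp5, of the insulin-like growth factor list, was also lower in every library, at 7.81 to 15.0 against 35.6 to 59.1 CPM.

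**Figure D3:**
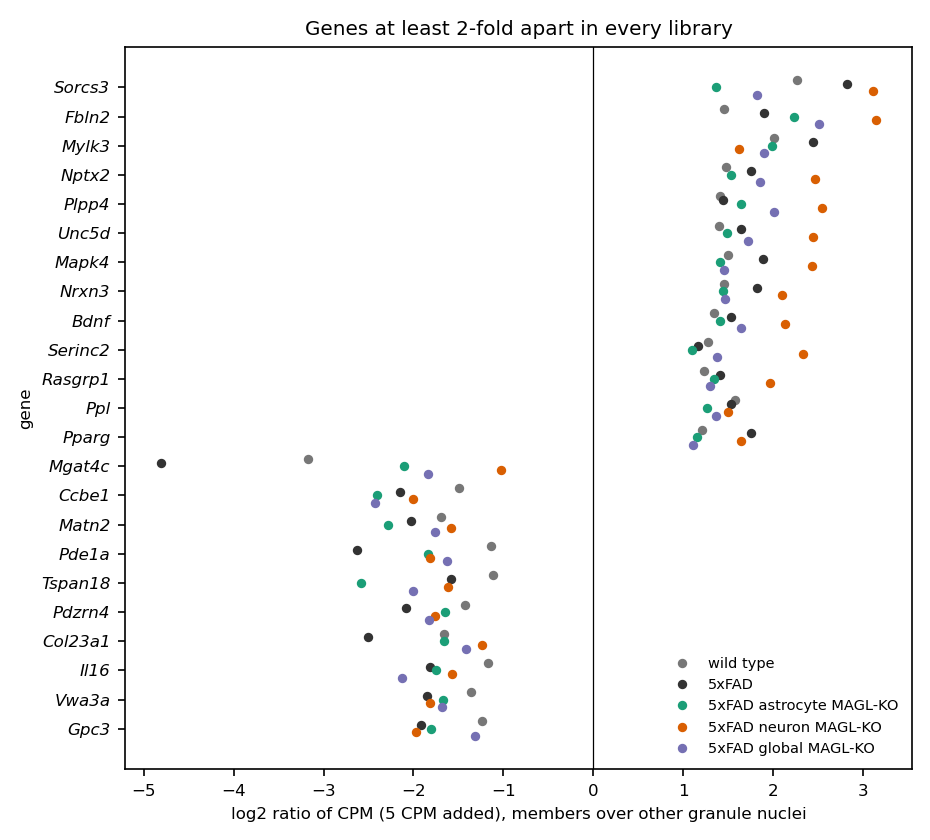
Log2 ratio of CPM with 5 CPM added, members over other granule nuclei (horizontal axis), for the 13 higher and 10 lower named genes (vertical axis), 1 point per library. Every point lies at or beyond a 2-fold difference; Sorcs3 and Mgat4c spread most between libraries, from 1.37 to 3.11 and from -4.81 to -1.03.

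Of the 13 higher genes, Bdnf, Nptx2 and Sorcs3 were followed along the member score, and their levels also differed between bands outside the members. In granule nuclei with a score below 0, 0 to 0.5, 0.5 to 1, 1 to 1.5, 1.5 to 2 and 2 or more, the mean Bdnf level of the 3 MAGL-KO libraries was 52.0, 88.3, 147, 211, 271 and 357 CPM, and that of wild type and 5xFAD 58.0, 83.7, 140, 209, 245 and 234 CPM. Sorcs3 was at 62.4, 158, 359, 489, 704 and 1006 CPM in the MAGL-KO libraries and at 47.0, 108, 264, 454, 977 and 716 CPM in the other 2. Its last band was below the one before it in 5xFAD (1349, then 746 CPM, from 11 and 8 nuclei). In wild type it was above (606, then 687 CPM). Nptx2 went from 1.84 to 52.3 CPM in the MAGL-KO libraries and from 1.45 to 52.6 CPM in the other 2 between the lowest and the highest band. Calb1 went from 152 to 23.6 CPM and from 168 to 28.5 CPM over the same bands. The highest band holds only 12 wild-type and 8 5xFAD nuclei.

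Several genes of late activity responses were higher in members, while most immediate early genes were too low to compare. Of 14 late response genes 11 were tested, 8 were higher in members of every library (15.2% of all genes) and 3 of these, Bdnf, Nptx2 and Sorcs3, by at least 2-fold throughout, with a median mean log2 ratio of 0.90 against -0.02 over all genes. The list was chosen with earlier results of these data known, so these counts are a description. Nptx2, Pcsk1 and Ptgs2 passed the filter through members alone, being at most 15.4 CPM in other granule nuclei. Inhba, which encodes the activin A subunit, was at 56.2, 58.6, 60.4, 85.2 and 59.6 CPM against 26.8, 22.7, 42.3, 40.3 and 27.6. Homer1 was at 114 to 213 CPM against 149 to 202 and was not higher. Of 15 immediate early genes only Jun was abundant enough to be tested, at 15.1 to 28.2 against 21.4 to 34.6 CPM, and it was lower in 5 of 5 libraries. The rest were below the level of the test, and their values are given without a comparison. Fos was at 0 to 2.01 CPM in members and 0.461 to 0.809 in the others, Npas4 at 0.739 to 3.91 and 1.16 to 2.33, Egr1 at 1.08 to 4.01 and 1.89 to 3.51, and Egr4 at 0 to 1.15 and 0.892 to 1.42. Egr3 was at 9.03 to 20.2 and 5.07 to 6.97 CPM, and Arc at 2.89 to 24.6 and 1.00 to 2.93. Fosl2, a subunit of the AP-1 transcription factor, was at 5.35 to 16.9 and 2.54 to 4.62 CPM.

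Among peptides and their processing, 10 of 22 genes were tested, 4 were higher in every library and 1, Cck, was lower (15.2% and 20.1% of all genes). The processing enzyme gene Pcsk2 was at 978, 915, 915, 1163 and 819 CPM against 614, 542, 588, 556 and 543, and the granins Chgb (100 to 169 against 57.9 to 79.3) and Scg2 (65.7 to 98.3 against 38.4 to 55.8) were also higher without overlap. Cck was at 16.9 to 54.9 against 51.3 to 94.2 CPM, and at 78.1 to 127 CPM over all nuclei. The part of transcripts from other nuclei in its low values was not tested. Pdyn, the prodynorphin gene, was at 3.91 to 7.59 CPM in members and 4.12 to 5.33 in the others, below the level of the test. Npy, which encodes neuropeptide Y, was at 3.01 and 5.21 CPM in wild-type and 5xFAD members (3 and 4 UMIs) and at 33.3, 73.9 and 62.2 CPM in the 3 MAGL-KO libraries, against 5.12, 2.91, 8.60, 15.1 and 7.50 CPM in other granule nuclei. Of the opioid receptors, Oprd1, the delta receptor, was at 10.0, 18.2, 52.0, 56.4 and 48.7 CPM against 7.51, 7.40, 14.5, 10.0 and 13.6, and Oprm1, the mu receptor, at 22.3 to 54.6 against 20.8 to 40.3.

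In the activin and TGF-beta pathway some receptors were higher and others lower. Of 18 genes 12 were tested, 6 were higher in every library and 4 lower (15.2% and 20.1% of all genes), and none by 2-fold throughout. Tgfbr2 passed the filter through members alone. Acvr1, the receptor ALK2, was at 253, 296, 416, 578 and 466 CPM in members against 185, 178, 214, 192 and 221. Acvr2a, the activin receptor that partners with the type I receptors, was at 140, 174, 103, 119 and 126 against 255, 270, 244, 252 and 245. Tgfbr2 was at 7.02, 14.3, 36.1, 54.7 and 28.6 CPM against 4.31, 4.33, 9.28, 4.28 and 6.72, whereas Tgfbr1 was at 45.1, 58.6, 32.5, 28.4 and 35.8 against 87.9, 93.4, 70.3, 95.5 and 104. Smad3, a signal transducer of these receptors, was at 194 to 231 against 124 to 150 CPM, and Smad2 and Smad4 were within 0.53 and 0.20 of the other granule nuclei on the log2 scale. The follistatin-like gene Fstl4 was at 408 to 849 against 294 to 423 CPM and Fstl5 at 6.51 to 24.8 against 27.7 to 40.4. Over all nuclei Fstl5 was at 158 to 186 CPM, and the part of transcripts from other nuclei was not tested.

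Beside Gsg1l, the AMPA receptor list held lower and higher genes. Of 16 tested, 8 were lower in every library and 2 higher (20.1% and 15.2% of all genes), none by 2-fold throughout, with a median mean log2 ratio of -0.21. Gria1 was at 1735, 1695, 1546, 1649 and 1862 CPM in members against 2587, 2655, 2464, 2523 and 2455, and Gria2 at 1472 to 1842 against 2053 to 2258, whereas Gria3 was at 802 to 953 against 755 to 786 and Cacng2, an auxiliary subunit, at 52.4 to 66.8 against 43.1 to 48.9. Cnih3, an auxiliary subunit, was at 39.1 to 65.1 against 86.8 to 105 CPM and Shisa9 at 612 to 758 against 794 to 987. Of 5 tested insulin-like growth factor genes only Igfbp5 was called (lower, against 0.392% of all genes). Igf1r was at 184 to 258 CPM against 194 to 227, and Pappa2, the paralogue of Pappa, was at 0 to 1.45 CPM. Among synaptic vesicle genes Sv2b was at 1.30 to 51.4 against 22.1 to 58.5 CPM and Sv2a at 37.1 to 59.9 against 43.9 to 53.5. Sv2b was at 242 to 304 CPM over all nuclei.

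More genes passed a 2-fold rule between libraries in members than in other granule nuclei. In members, 23 of 6142 genes (0.374%) were at least 2-fold higher in each of the 3 MAGL-KO libraries than in both wild type and 5xFAD, and 14 (0.228%) at least 2-fold lower. In other granule nuclei the counts were 0 and 2 of 6038 (0% and 0.0331%). This comparison was chosen after earlier values were seen, and wild-type and 5xFAD members are few, so the counts shift with single libraries. In wild type and 5xFAD, members held 996953 and 768149 UMIs and other granule nuclei 22251201 and 18931400. Members of the MAGL-KO libraries were also mainly Xist-called. The part of depth and of sex in the difference between the classes was not tested. Without wild type 83 genes were higher and 29 lower, without 5xFAD 42 and 36, without the astrocyte MAGL-KO library 48 and 27, and without the global MAGL-KO library 36 were higher. Of the listed genes, Npy, Oprd1 and the rule gene Col27a1, whose level helped to choose the members, were among the 23. Members of the MAGL-KO libraries also had higher scores, with medians of 1.52, 2.07 and 1.70 against 1.30 and 1.38, and the part of the score in these counts was not tested. At a score of 1 to 1.5, mean Oprd1 was 40.4 CPM in the MAGL-KO libraries and 7.72 in the other 2. From 1.5 to 2 it was 50.4 against 4.29 CPM. At a score of 2 or more it was 64.9 against 54.8 CPM (21.9 in wild type and 87.7 in 5xFAD, from 12 and 8 nuclei). Mean Npy in the same bands was 30.4 against 3.59, 45.2 against 6.39 and 90.7 against 3.65 CPM. The following were chosen after their values were seen. Lhfp was at 11.0, 5.21, 122, 364 and 189 CPM in members and at 11.4, 15.1, 32.2, 30.8 and 38.5 CPM in other granule nuclei. Prlr, the prolactin receptor gene, was at 9.03, 0, 59.6, 76.0 and 87.0 CPM, and Grp, which encodes gastrin-releasing peptide, at 17.1, 9.11, 69.0, 70.8 and 47.3 CPM. Hmgcs1 (7.02, 6.51, 25.3, 20.3 and 36.9 CPM) and Msmo1 (10.0, 10.4, 34.7, 27.4 and 34.9 CPM), of cholesterol synthesis, were also among them. Dpp10, an auxiliary subunit of potassium channels, was at 31.1, 31.2, 430, 221 and 376 CPM in members and at 328, 453, 585, 562 and 542 CPM in other granule nuclei, so here members of every library were below the reference and those of wild type and 5xFAD farthest below.

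Of the 14 lower genes 4 are Y-linked, and 92.0%, 97.4% and 93.1% of the sex-called members of these libraries were Xist-called. Of the other 10, Cfap54 was as low in other granule nuclei, at 145, 134, 36.1, 15.0 and 31.9 CPM in members and 137, 130, 31.8, 28.5 and 33.6 CPM there. The 10 include Ntf3, a neurotrophin, at 68.2, 52.1, 17.0, 15.9 and 14.6 CPM against 47.3 to 61.3 in other granule nuclei, and the adenylyl cyclases Adcy1 (258, 281, 123, 117 and 98.2 CPM against 225 to 267) and Adcy8 (207, 198, 76.3, 76.8 and 88.6 against 76.1 to 114). Zbtb16 was at 232, 240, 106, 84.8 and 112 CPM against 276 to 324. These reference ranges pool Xist-called and Y-called other granule nuclei. Adcy1 was at 260, 258, 213, 219 and 143 CPM in Xist-called and 302, 286, 282, 260 and 316 in Y-called ones. Zbtb16 was at 295, 328, 241, 293 and 225 against 259, 330, 378, 291 and 355. Ntf3 was at 57.8, 56.5, 44.8, 56.4 and 42.9 against 71.9, 59.1, 58.4, 64.7 and 61.7. Adcy8 was at 63.7 to 107 against 62.9 to 104. The part of sex in these levels was not tested. Nr4a3, a nuclear receptor among the immediate early genes, was at 46.1, 19.5, 9.04, 3.26 and 3.32 CPM and was not among the 14. Against other granule nuclei it was below the level needed for the test.

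The same direction held within Xist-called members for the named genes. Npy was at 2.15, 9.36, 37.5, 78.5 and 71.4 CPM, Oprd1 at 6.45, 15.6, 56.4, 60.9 and 50.2 CPM and the rule gene Col27a1 at 6.45, 3.12, 35.3, 52.9 and 126 CPM. Lhfp was at 8.59, 6.24, 132, 388 and 218 CPM and Ntf3 at 49.4, 49.9, 11.9, 16.5 and 9.72 CPM. Within Xist-called members 35 of 6265 genes (0.559%) were higher and 22 (0.351%) lower, of which 17 and 8 were also called over all members. The 4 Y-linked genes could not be called there, as these nuclei hold no Y-linked UMI. The Y-called members of the MAGL-KO libraries, which number 17, 7 and 27, had Npy at 9.36, 11.3 and 7.24 CPM, Col27a1 at 4.68, 0 and 3.62 CPM and Lhfp at 18.7, 0 and 10.9 CPM, below the Xist-called members of the same libraries. Ntf3 was above them in the astrocyte and global libraries, at 56.1, 11.3 and 50.7 CPM, and Adcy1 in all 3, at 276, 260 and 210 CPM against 105, 114 and 79.3. In Y-called members of the neuron MAGL-KO library 11.3 CPM is 1 UMI, with an interval of 0.286 to 63.0 CPM.

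**Figure D4:**
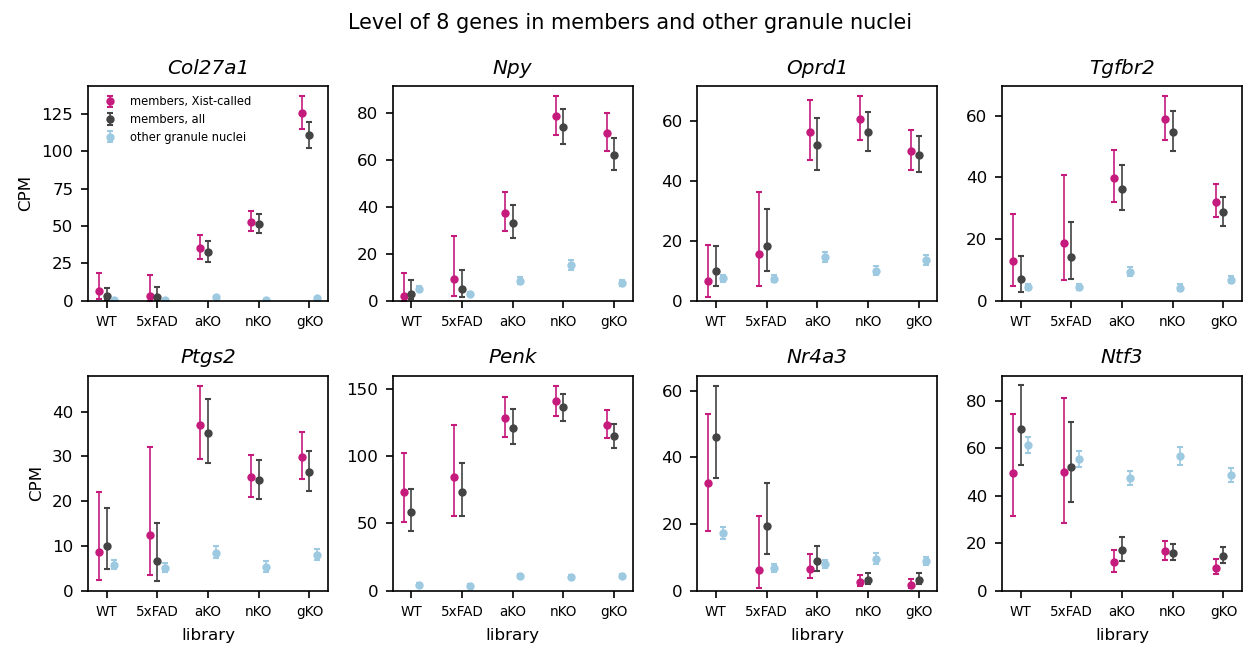
Level in CPM (vertical axes, each from 0) of 8 genes in members, in Xist-called members and in other granule nuclei of each library (horizontal axis; WT, wild type; aKO, nKO and gKO, astrocyte, neuron and global MAGL-KO); whiskers are exact 95% Poisson intervals. Npy, Oprd1 and the rule gene Col27a1 are at or below 18.2 CPM in members of wild type and 5xFAD and at or above 32.5 CPM in those of the 3 MAGL-KO libraries, and Ntf3 is lower there.

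Open chromatin, which the rule did not use, was measured as transposase cut sites in the peaks listed for each library. Cut sites were summed over the peaks that touch a gene or the 2000 bases upstream of it and given per 1000000 cut sites of the class. All 6 rule genes had more scaled cut sites in members than in other granule nuclei in 5 of 5 libraries. A two-sided exact permutation test that flips the sign of the log2 ratio in each library gave p = 0.0625 for each of the 6 genes (also after Benjamini-Hochberg adjustment over the 6), which is the smallest that 5 libraries allow. The test was added after the ratios were seen. Any 5 ratios of the same sign give this value, so it adds nothing to the 5 of 5. Over 19960 genes with at least 50 cut sites in each library, 1953 (9.78%) were higher in every library and 2632 (13.2%) lower. Penk was at 31.9, 23.0, 27.8, 25.5 and 25.5 scaled cut sites in members against 10.5, 10.0, 12.3, 8.97 and 9.64, a ratio of 2.25 to 3.04. Pappa was at 63.8, 66.3, 73.4, 109 and 79.4 against 38.0, 33.2, 45.3, 37.1 and 44.8. Col27a1 was at 135, 131, 140, 212 and 200 scaled cut sites against 112, 108, 112, 113 and 123, log2 ratios of 0.27, 0.29, 0.33, 0.90 and 0.71. Within Xist-called nuclei the 5xFAD value was -0.25. In wild type and 5xFAD the intervals of the linear ratio, 0.999 to 1.43 and 0.980 to 1.49, included 1. The mean log2 ratio was 0.53 for Acvr1c, 0.50 for Gsg1l and 0.49 for Sv2c.

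Most, but not all, of the named genes outside the rule went the same way in chromatin as in RNA. Of the 13 named higher genes 11 had more cut sites in members in every library and none fewer in every library, and of the 10 named lower genes 8 had fewer in every library and none more in every library. Unc5d (log2 -0.05 in 5xFAD), Pparg (-0.12 in astrocyte MAGL-KO), Matn2 (0.09 in 5xFAD) and Tspan18 (0.16 in 5xFAD) went the other way in 1 library each. Within Xist-called nuclei Mylk3 (-0.28 in wild type, -0.04 in global MAGL-KO), Nrxn3 (-0.07 in 5xFAD) and Plpp4 (-0.11 in global MAGL-KO) were reversed too. So were the lower genes Mgat4c (0.41 in wild type) and Vwa3a (0.51 in 5xFAD). Pparg was reversed there in astrocyte and global MAGL-KO (-0.23 and -0.12), and Matn2 in wild type (0.11) and 5xFAD. Unc5d and Tspan18 stayed reversed in 5xFAD. Nptx2 was at 47.3, 52.7, 58.2, 51.2 and 60.1 scaled cut sites against 28.6, 28.7, 28.4, 23.2 and 27.8. Calb1 was at 16.5, 20.3, 22.5, 19.1 and 20.4 against 35.8, 37.6, 30.5, 33.4 and 31.1. The mean log2 ratio was 0.82 for Sorcs3, 0.66 for Fbln2 and 0.21 for Bdnf. Npy, over which 1 peak was listed, was at 6.18, 2.70, 7.60, 13.3 and 12.3 scaled cut sites in members against 4.05, 4.08, 5.30, 5.29 and 4.55, but the first 2 values rest on 6 and 2 cut sites.

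**Figure D5:**
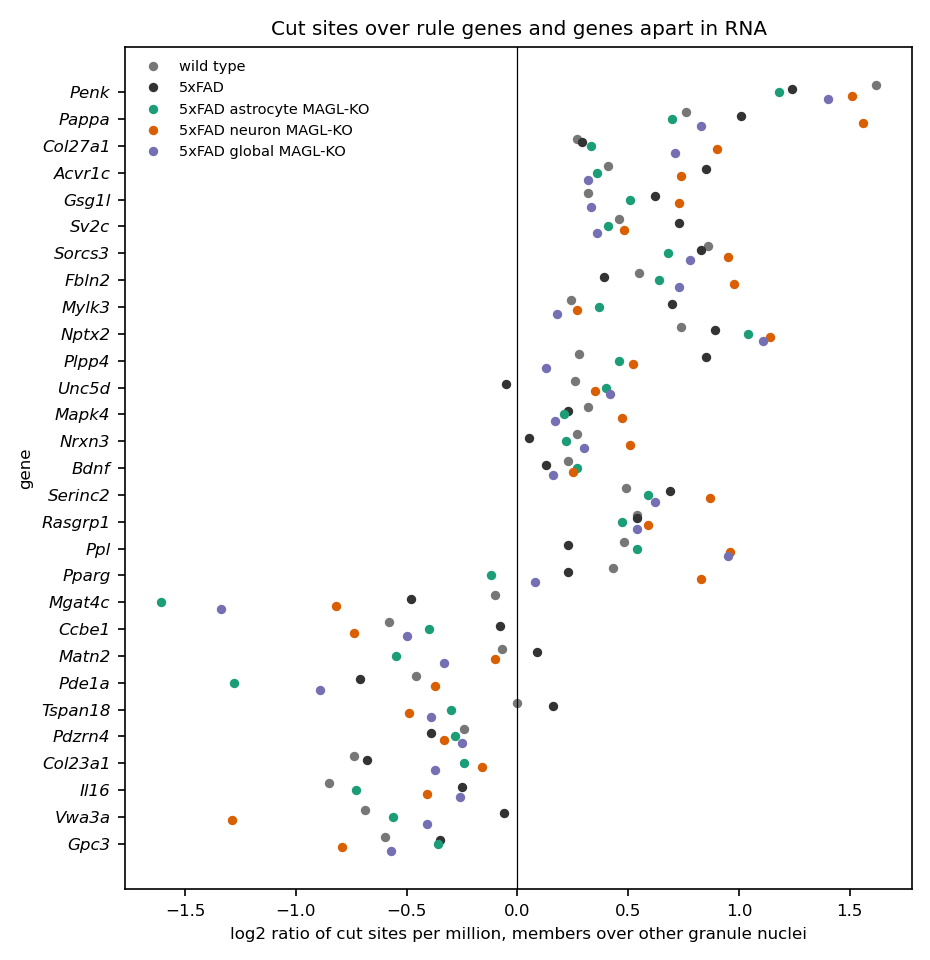
Log2 ratio of scaled cut sites over a gene and its upstream 2000 bases, members over other granule nuclei (horizontal axis), for the 6 rule genes and the 23 named genes (vertical axis), 1 point per library. All points of the 6 rule genes lie above 0, and the lower genes of RNA lie below 0 except for single libraries of Matn2 and Tspan18.

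At the rule genes, 67 merged regions were listed in all 5 libraries with at least 200 cut sites, and 22 of them had a higher share of cut sites in members of every library while 3 had a lower one. Over all 91981 such regions, 10.9% were higher in every library and 14.8% lower. Coordinates are on GRCm38. The Penk start region, chr4:4138366-4139237, lies over the annotated transcript start and gave log2 ratios of 2.37, 1.48, 1.49, 2.04 and 1.75. The following have the highest mean ratio of their gene and were chosen after their values were seen. For Pappa it was an intron region 119 kb into the gene, chr4:65242231-65243170, at 9.26, 32.5, 30.7, 50.0 and 25.7 scaled cut sites in members against 6.72, 5.04, 7.55, 6.39 and 5.97. For Col27a1 it was an intron region 7.79 kb from the start, chr4:63221352-63222238, with log2 ratios of 3.70, 1.52, 1.75, 2.05 and 3.11 on 10, 2, 15, 34 and 63 member cut sites. For Sv2c it was an intron region 121 kb from the start, chr13:96010773-96011758, with log2 ratios of 0.95, 3.54, 1.08, 1.78 and 1.14. For Acvr1c it was the start region chr2:58357433-58358303, at 1.15, 1.54, 0.91, 1.46 and 0.96. For Gsg1l it was an intron region 88.8 kb from the start, chr7:125993156-125994035, at -0.04, 2.25, 1.14, 1.95 and 2.33, where wild type rests on 2 member cut sites.

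The 250 bases before an annotated start are shown for 3 rule genes and for Npy and Tgfbr2, whose RNA differed between libraries, so that their cut sites can be set beside their RNA. These 5 windows have a peak in every library and overlap no annotated exon. Their values were known when they were picked. Windows of other genes, such as Sorcs3 and Oprd1, meet the same terms. They come from RefSeq on GRCm38.p6, which held 3 of the 6 rule genes, and run 5′ to 3′ on the gene's strand, with any match to a searched motif in capitals. The Acvr1c window, chr2:58324808-58325057 on the minus strand, belongs to an annotated start inside the gene, the Sv2c window is chr13:96132578-96132827 on the minus strand, and the Col27a1 window, also before an annotated start inside the gene, is chr4:63215162-63215411 on the plus strand. The Npy window is chr6:49822460-49822709 on the plus strand and the Tgfbr2 window chr9:116175364-116175613 on the minus strand.
Acvr1c: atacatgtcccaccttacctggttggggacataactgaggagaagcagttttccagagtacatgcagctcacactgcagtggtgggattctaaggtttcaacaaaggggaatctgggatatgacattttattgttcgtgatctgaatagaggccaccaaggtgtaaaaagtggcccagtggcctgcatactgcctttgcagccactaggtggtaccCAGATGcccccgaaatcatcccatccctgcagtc
Sv2c: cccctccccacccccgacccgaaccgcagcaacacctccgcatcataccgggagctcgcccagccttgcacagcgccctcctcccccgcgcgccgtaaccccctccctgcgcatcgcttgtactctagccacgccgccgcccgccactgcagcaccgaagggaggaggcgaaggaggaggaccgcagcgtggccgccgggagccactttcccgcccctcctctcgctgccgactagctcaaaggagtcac
Col27a1: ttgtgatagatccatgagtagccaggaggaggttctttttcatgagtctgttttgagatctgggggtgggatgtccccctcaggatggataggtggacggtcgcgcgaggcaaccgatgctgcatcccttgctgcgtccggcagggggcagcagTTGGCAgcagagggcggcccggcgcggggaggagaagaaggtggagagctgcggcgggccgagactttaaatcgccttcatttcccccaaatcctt
Npy: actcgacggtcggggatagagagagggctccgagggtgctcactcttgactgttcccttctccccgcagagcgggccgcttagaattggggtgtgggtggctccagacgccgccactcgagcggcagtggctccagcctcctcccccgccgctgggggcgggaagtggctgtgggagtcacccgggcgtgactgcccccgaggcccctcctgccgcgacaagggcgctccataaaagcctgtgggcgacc
Tgfbr2: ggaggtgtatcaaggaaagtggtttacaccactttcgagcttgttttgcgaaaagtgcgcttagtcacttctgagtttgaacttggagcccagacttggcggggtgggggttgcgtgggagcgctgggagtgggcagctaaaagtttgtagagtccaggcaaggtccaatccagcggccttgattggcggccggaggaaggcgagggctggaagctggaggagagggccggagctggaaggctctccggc

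Peaks over the Sv2c window gave log2 ratios of 0.70, 1.61, 1.05, 0.80 and 0.55, and those over the Tgfbr2 window 0.79 to 1.68 on 5, 6, 23, 68 and 41 member cut sites. Those over the Acvr1c window gave 0.57, 1.05, 0.11, 0.43 and 0.35. The Col27a1 window gave 1.19, -0.60, -0.21, 1.44 and 0.42 on 14, 2, 15, 72 and 36 member cut sites, so it was not more open in members of every library. In capitals are the E-box CAGATG in Acvr1c, found in 14.4% of 32851 RefSeq windows of the same length, and the NFI half-site TTGGCA in Col27a1, found in 12.3%. Searched on both strands, AP-1 (TGANTCA, 6.75% of windows), CRE (TGACGTCA, 1.55%), MEF2 (CTATTTTTA, 0.454%) and EGR (GCGNGGGCG, 4.70%) had no match in these 5 windows. Of the other windows looked at, those of Pcsk1 and Scg2 hold a CRE match. A Bdnf window without cut sites in any library holds an AP-1 match. Windows of Bdnf, Fbln2 and Prox1 hold the E-box.

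Across all promoters the 6 motifs were compared by their share of cut sites. Peaks over RefSeq promoter windows that hold an AP-1 match took 4.33%, 4.50%, 4.52%, 4.63% and 4.57% of promoter cut sites in members against 4.21%, 4.24%, 4.26%, 4.26% and 4.31% in other granule nuclei, higher in 5 of 5 libraries with a mean log2 ratio of 0.08. For EGR the shares were 14.27%, 14.22%, 14.12%, 14.05% and 13.98% against 14.24%, 14.17%, 14.18%, 14.13% and 14.07%, and for CRE 4.19%, 4.06%, 4.08%, 4.03% and 4.04% against 4.11%, 4.09%, 4.10%, 4.10% and 4.07%. The log2 ratios of MEF2, which rests on 44 to 46 peaks a library, went from -0.126 to 0.208 and in both directions, those of the NeuroD E-box from 0.003 to 0.032 and higher in 5 of 5, and those of the NFI half-site from -0.004 to 0.026. With each peak counted at most once per nucleus, the NeuroD E-box ratio was -0.005 in wild type. Promoter windows as a whole took 31.5%, 31.8%, 30.2%, 28.3% and 28.8% of cut sites in members against 31.0%, 31.7%, 30.9%, 30.4% and 29.9%.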

How the data were processed

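The deposited matrices hold UMI counts per gene and cut-site counts per peak for each nucleus of 5 multiome libraries. Per the file headers the authors made these counts with cellranger-arc 2.0.0, and the submitters' processing notes name Cell Ranger ARC 2.0.0, Seurat and mm10. Peaks are listed per library, so cut sites were compared within a library only. 83.7% to 85.3% of the cut-site counts are even, as paired ends give, so their intervals are too narrow. The deposited feature lists also give peak and gene positions. GENCODE vM21 (GRCm38) holds the identifiers of 32235 of the 32285 genes.

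The rule was applied in Python 3.11.15 with numpy 2.4.6 and scipy 1.17.1. UMIs were summed per class and library. A gene was tested at 20 CPM or more in either class (mean over libraries) and called at a 2-fold ratio with 5 CPM added, in the same direction in every library with at least 50 members. No test between genotypes was possible. Ratios of members over other granule nuclei were described per library. Only cut sites at the rule genes were tested, by an exact sign-flip test over the 5 libraries added after seeing the data. Named are the rule genes, genes of 26 lists, and up to 15 called higher and 10 called lower by mean log2 ratio, leaving out unnamed models, sex-linked markers (Xist, Tsix, Y genes) and mitochondrial genes; others are marked. The members and the lists were chosen with earlier results of these data known. Nearest nuclei used scanpy 1.11.5 with 2000 variable genes. Doublets were not removed; Scrublet was an alternative, at 0.8% of nuclei per 1000 nuclei. Scripts were tested on simulated data. Motifs were searched in RefSeq promoter windows of 300 bases. The planned count in distal peaks was not made, since it needs genome sequence.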

Additional observations from a re-analysis of the deposited data

Results flagged for a closer look

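The difference in member share between a MAGL-KO library and the 5xFAD library went one way in Xist-called and the other way in Y-called granule nuclei. In Xist-called nuclei the share was higher by 15.6, 26.3 and 34.2 percentage points in the astrocyte, neuron and global MAGL-KO libraries, as labelled. In Y-called nuclei the differences were -0.876, -0.865 and -0.443 percentage points, and the intervals of the Y-called shares overlap. The difference between Xist-called and Y-called nuclei was not tested, because each genotype is 1 library and the number of animals behind the nuclei of each sex is not known from the labels. Sex, animal and genotype cannot be told apart.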

How the results depend on the processing

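No paired analysis was possible because, between genotypes, each is a single library without a partner in the labels; members and other granule nuclei were compared within the same library throughout. Under every alternative tried except Y-called nuclei alone, the 3 MAGL-KO libraries kept a larger member share than wild type and 5xFAD. A lower score threshold (0.75) gave 9.18%, 7.93%, 21.7%, 28.3% and 29.6% of granule nuclei, and a higher one, 0.25 above the main threshold, gave 2.95%, 2.97%, 10.2%, 22.5% and 18.3%. A granule score of 1 gave 6.86%, 7.73%, 17.4%, 22.3% and 25.2%. Z-scores within libraries gave 9.12% and 8.17% in wild type and 5xFAD and 22.7% and 19.9% in the neuron and global MAGL-KO libraries. Nuclei thinned to 5000 UMIs gave 12.4%, 19.0% and 19.3% in the 3 MAGL-KO libraries, Xist-called nuclei 21.5%, 32.2% and 40.1%, and Y-called nuclei 3.58%, 3.59% and 4.01%. The score without Penk gave 7.27% in wild type; without Pappa 6.79% in wild type, 18.4% in astrocyte and 25.6% in global MAGL-KO; without Col27a1 7.88%, 7.10%, 18.7% and 26.0% in wild type, 5xFAD, astrocyte and global MAGL-KO; without Acvr1c 12.4% in astrocyte MAGL-KO; without Sv2c 3.63% in 5xFAD.

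Genes called higher (22) and lower (24) numbered 55 and 50 against granule nuclei with a score below 0, 40 and 65 in Xist-called nuclei, 36 and 40 without nuclei holding both Xist and Y-linked UMIs, and 63 and 118 at the higher score threshold. The Xist-called and higher-threshold settings use only the 3 MAGL-KO libraries, and the Y-called setting could not be run, as no library has 50 such members. Of the 22 and 24 genes, 17 and 19 were still called in Xist-called nuclei, and 18 of the 24 after thinning. Leaving out 1 library gave 24 to 30 higher and 24 to 58 lower genes. The 23 genes higher and 14 lower in members of the MAGL-KO libraries became 35 and 22 in Xist-called members, 36 higher with 1 CPM added and 23 lower after thinning, and 32 to 83 and 19 to 36 with 1 library left out. Of them 17 and 8 were still called in Xist-called members and 14 and 10 after thinning. The 4 Y-linked genes among the 14 have no UMI in Xist-called nuclei by definition and could not be called there. These last alternatives were chosen after seeing the data. The mean log2 ratio of cut sites at the rule genes (0.73) stayed at 0.67 to 0.77 and that of AP-1 promoters (0.08) at 0.07 to 0.09 with 1 library left out. The motif count over all peaks in place of distal ones was not run. The cause of these shifts was not tested. The few members of wild type and 5xFAD limit every level under about 20 CPM there.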

Other observations

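Some other gene lists had members higher and lower side by side. Of 16 potassium and HCN channel genes tested, 4 were higher and 4 lower in members of every library (15.2% and 20.1% of all genes), and none by 2-fold throughout. Kcnip4, a subunit of A-type potassium channels, was at 15563 to 17965 CPM in members against 13179 to 16211, and Kcnd2, the channel it binds, at 2918 to 4528 against 4382 to 5688. Kcnh5 was at 17.7 to 24.1 against 35.7 to 58.5 CPM. In the perineuronal matrix list Spock3, a testican proteoglycan, was at 1257, 1203, 1122, 1328 and 887 CPM in members against 571, 509, 482, 416 and 499, while Tnr was at 548 to 766 against 643 to 783. In the endocannabinoid list none of 7 tested genes was called (0.360% of all genes were called higher and 0.392% lower), and 2, Daglb and Mgll, were higher in every library (15.2% of all genes); Daglb, a diacylglycerol lipase, was at 36.0 to 56.0 against 23.3 to 35.8 CPM and Faah at 90.3 to 114 against 101 to 115. Of 5 tested collagens other than Col27a1, 1 was higher and 2 lower in every library (15.2% and 20.1% of all genes). Col23a1, given above, was called lower. Col6a1, the higher one, was at 3.01, 16.9, 56.7, 33.4 and 46.7 CPM against 1.71, 1.80, 14.4, 4.08 and 13.9. It passed the filter through members alone.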
